A study of Mus musculus with 2 samples.

Results

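Klrg1-positive T cells were examined in droplet single-cell RNA-seq of splenic regulatory T cells (Tregs). They were chosen on measured values: a barcode had at least 300 detected genes and 2000 UMIs (deduplicated transcript counts), at most 5% mitochondrial UMIs, at least 3 UMIs in all of Cd3d, Cd3e, Cd3g, Trac and Trbc2, at most 2 UMIs in all of Mki67, Top2a, Birc5 and Pclaf (genes of cycling cells), and at least 1 Klrg1 UMI. The rule gave 363 of the 32658 deposited barcodes, 346 of them in the WT library and 17 in the KO library. T-cell barcodes inside the same limits with no Klrg1 UMI, 3748 in WT and 5639 in KO, were the set they were described against.

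The study compared Tregs of 7-day-old mice on the C57BL/6J background. The KO mice were Foxp3 Cre Zfp335 fl/fl, in which Zfp335, a zinc finger transcription regulator, is deleted wherever the Foxp3 locus drives Cre, and the WT mice carried the Foxp3 Cre allele alone, so that Cre and a YFP reporter were present in both groups. Red blood cells were lysed and CD4+YFP+7AAD- spleen cells were sorted, where 7AAD stains dead cells. Each genotype was 1 library, and how many mice went into each was not stated in the sources used here. Mice and libraries therefore cannot be told apart from genotype, no test was possible and no p-value is given. All intervals are exact 95% intervals (Poisson for levels, Clopper-Pearson for shares, conditional binomial for ratios) and cover counting error only.

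Klrg1 encodes killer cell lectin-like receptor G1, an inhibitory receptor with an immunoreceptor tyrosine-based inhibitory motif that binds classical cadherins. On Tregs it marks a differentiated effector subset, as opposed to resting or central Tregs that express Ccr7 and Tcf7, and Klrg1-positive Tregs are known for residence in barrier tissues, for the IL-33 receptor ST2 (encoded by Il1rl1) and for Gata3. Klrg1 is also expressed by NK cells and effector CD8 T cells, so the markers of those cells were counted beside it.

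To show the start regions of genes with which the Klrg1-positive barcodes were described, promoter windows from 250 bases before to 50 bases after the RefSeq transcription start (assembly GRCm38.p6, the build of the counts) were read for 13 of 17 genes looked for, the population markers and the 15 genes with the highest ratio in WT. No entry was found for Klrg1, Ccl5, Ccl4 or Neb. The windows of S100a6 and Il18rap, both markers of the population, and of Gzmb, whose level was among the most different, follow 5′ to 3′ on the strand of the gene. Capitals mark TGTGGT, the core bound by Runx factors, or ACCACA, the same core on the opposite strand.
S100a6, chr3:90612644-90612943, plus strand: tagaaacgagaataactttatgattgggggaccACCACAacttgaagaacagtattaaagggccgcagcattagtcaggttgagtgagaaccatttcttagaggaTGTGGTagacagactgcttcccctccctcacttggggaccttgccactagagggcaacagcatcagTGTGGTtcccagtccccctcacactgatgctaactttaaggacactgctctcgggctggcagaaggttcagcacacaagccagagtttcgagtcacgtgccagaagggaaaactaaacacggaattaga
Il18rap, chr1:40515112-40515411, plus strand: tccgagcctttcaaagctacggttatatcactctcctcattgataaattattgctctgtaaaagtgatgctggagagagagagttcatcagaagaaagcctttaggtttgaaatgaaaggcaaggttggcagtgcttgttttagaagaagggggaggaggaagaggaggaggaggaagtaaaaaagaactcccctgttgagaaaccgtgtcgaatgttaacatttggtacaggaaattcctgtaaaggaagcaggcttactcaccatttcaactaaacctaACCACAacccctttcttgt
Gzmb, chr14:56262285-56262584, minus strand: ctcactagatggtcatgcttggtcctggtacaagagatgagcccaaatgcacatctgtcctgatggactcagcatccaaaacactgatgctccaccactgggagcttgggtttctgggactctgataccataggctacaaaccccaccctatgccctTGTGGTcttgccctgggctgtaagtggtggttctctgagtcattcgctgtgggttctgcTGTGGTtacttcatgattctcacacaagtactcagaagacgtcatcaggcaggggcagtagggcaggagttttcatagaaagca
Searched on both strands, TGTGGT was found in 8 of the 13 genes, namely S100a6 with 3 matches, Gzmb and Ltb4r1 with 2 each, and Il18rap, Xcl1, Cxcr6, Il1rl1 and Gzma. It was found in 16.8% of all 32851 windows and in at least 1 window of 18.9% of all genes in the same table. The AP-1 motif TGANTCA was found in Gzmb alone of the 13 (8.97% of all genes), the GATA motif TGATAA in Il18rap and Il1rl1 (10.4% of all genes) and the T-box motif TCACACC in Xcl1 alone (4.60% of all genes). These letters are a description of the windows, and binding was not measured.

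The WT library held 64567991 UMIs and the KO library 65480052. WT members had a median of 6906 UMIs (range 2140 to 19691) and 2313 genes, against 4882 UMIs and 1788.5 genes in the WT Klrg1-zero barcodes, and KO members had 5224 UMIs and 1796 genes against 3922 and 1504. Levels are therefore given as CPM, the UMIs of a gene per 1000000 UMIs of all genes summed over a set, and shares of barcodes with a UMI are given both as deposited and after each barcode was randomly thinned to 2000 UMIs. Barcodes with more than 1% of their UMIs in marker genes of erythroid cells, neutrophils or B cells made up 97 of the 3748 WT Klrg1-zero barcodes and 1 of the 346 WT members, and 412 of 5639 and 2 of 17 in KO. In WT, the summed erythroid marker level was 409 CPM in members and 6764 CPM in Klrg1-zero barcodes, and the neutrophil marker level 278 and 5353 CPM. Without those barcodes the Klrg1-zero levels were 437 and 323 CPM, and ratios over this cleaned set, with the 1 such member left out too, are given where they changed a statement. The libraries shared 70 barcodes, among them 1 KO member and no WT member.

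Zfp335, the targeted gene, was detected in the Klrg1-positive cells of the WT library at the level of the other T cells. It had 25 UMIs in WT members (9.72 CPM) and 182 in WT Klrg1-zero barcodes (8.94 CPM), against 24 UMIs in KO Klrg1-zero barcodes (0.914 CPM, a KO over WT ratio of 0.102). The 17 KO members held 1 Zfp335 UMI, in a barcode that also carried neutrophil RNA.

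Klrg1-positive cells were much less frequent among KO than among WT Tregs. They were 346 of 4094 WT T-cell barcodes (8.45%, 95% interval 7.62 to 9.35%) and 17 of 5656 KO T-cell barcodes (0.301%, 0.175 to 0.481%). After thinning to equal depth the shares were 4.47% (3.86 to 5.15%) and 0.0884% (0.0287 to 0.206%), so that the WT share was the higher one at matched depth too. The Klrg1 gene (ENSMUSG00000030114, chr6:122270596-122282882, minus strand, mm10) gave 870 UMIs in all WT T-cell barcodes, 37.9 CPM (35.5 to 40.6), and 19 UMIs in KO, 0.720 CPM (0.434 to 1.12). The KO over WT ratio of this level was 0.0190 (0.0114 to 0.0298). All these UMIs are those of the members, which the rule chose on Klrg1, so that shares and level are a description of the same counts.

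The number of Klrg1 UMIs per barcode also differed between the libraries. In WT 184 members had 1 Klrg1 UMI, 48 had 2 and 114 had 3 or more, with a maximum of 16. In KO 15 members had 1 UMI and the other 2 had 2, and none of the 5656 barcodes had 3 or more, which allows a share of up to 0.0652%. As a background, erythroid-marker barcodes were read, with over 5% of their UMIs in erythroid genes. A Klrg1 UMI was found in 1 of 119 in WT (0.840%, 0.0213 to 4.59%, median 6329 UMIs). In KO it was found in 0 of 220, an upper limit of 1.66% (median 5071 UMIs). No T-cell limit was set for these barcodes, and after thinning 18.5% of those in WT had Ikzf2 and 6.72% Cd4. They replaced a planned background with a T-cell gene sum of 0, which held only 9 WT and 10 KO barcodes, 0 of them with Klrg1. The KO share of 0.301%, at a median of 3927 UMIs over all T-cell barcodes, lies below both upper limits. Those limits rest on few barcodes that can hold T-cell RNA, so that they cannot show whether the KO UMIs are background. The WT share of 8.45%, at a median of 5027 UMIs, lies above both limits.

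**Figure D1:**
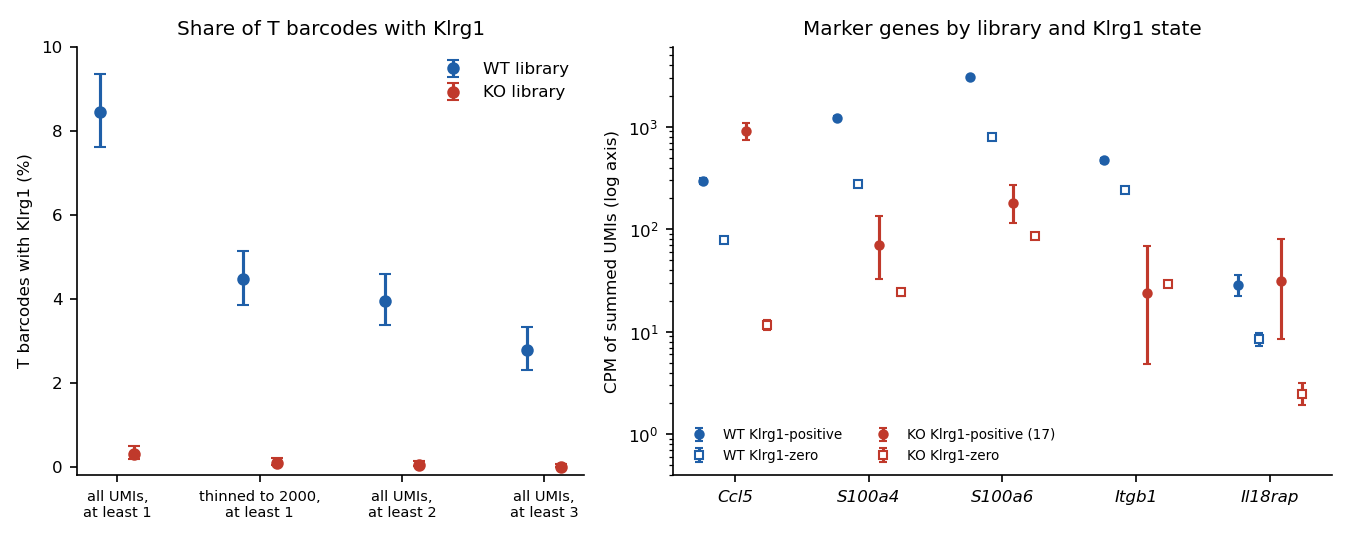
Left, percent of T-cell barcodes with Klrg1 UMIs (vertical axis, percent, with Clopper-Pearson intervals) in the WT and KO libraries, for at least 1 UMI as deposited, at least 1 after thinning to 2000 UMIs, and at least 2 and 3 as deposited. Right, CPM on a log axis with Poisson intervals of the other population markers in Klrg1-positive (filled circles) and Klrg1-zero barcodes (open squares) of each library. WT shares ran from 2.78 to 8.45% and KO shares from 0 to 0.301%, and S100a4 and S100a6 were higher in WT members than in the other 3 sets, while 114 of the 115 Ccl5 UMIs of the KO members came from 1 barcode.

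Barcodes next to the limits were few on the T-cell side and many on the cycling side. Only 2 WT members and 1 KO member had a T-cell gene sum of 3 to 5, and no barcode with a sum of 2 met all other limits. A cycling sum of 2 was found in 100 WT and 6 KO members, and 48 WT barcodes and 1 KO barcode missed only through a sum of 3. All 921 WT barcodes with Klrg1 were accounted for by the 346 members, 369 T-cell barcodes over the cycling limit, 68 over the mitochondrial limit, 137 under a depth limit and 1 under the T-cell minimum. The 41 KO barcodes split into 17, 20, 1, 3 and 0 in the same order.

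Nearly all WT members carried a Treg transcript. Of the 346, 105 (30.3%) had a Foxp3 UMI, 170 (49.1%) an Il2ra UMI, 171 (49.4%) a Ctla4 UMI and 336 (97.1%) an Ikzf2 UMI, and 342 (98.8%) had at least 1 of these 4 genes. In Klrg1-zero barcodes the shares were 23.3, 39.3, 31.1, 82.6 and 90.0%. At least 2 of the 4 genes were found in 271 members (78.3%) and in 58.2% of Klrg1-zero barcodes. Thinned to 2000 UMIs, Foxp3 was found in 13.9% of members and 10.9% of Klrg1-zero barcodes, Il2ra in 21.7 and 22.1%, Ctla4 in 20.5 and 14.5%, and Ikzf2 in 80.3 and 63.3%, while Cd4, the gene of the sorted surface protein, was found in 22.8 and 27.3%. The erythroid-marker barcodes of WT gave thinned shares of 0, 5.88, 3.36 and 18.5% for these 4 Treg genes and 6.72% for Cd4. By level, Foxp3, the lineage-defining factor, was 57.9 CPM in members and 54.5 CPM in Klrg1-zero barcodes, a ratio of 1.06 (0.890 to 1.26), an interval that includes 1.

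NK and CD8 T-cell transcripts were found in few barcodes of either WT set. Any of 6 genes of those cells was present in 17 of 346 members (4.91%, 2.89 to 7.75%) and in 173 of 3748 Klrg1-zero barcodes (4.62%, 3.97 to 5.34%), and at least 3 UMIs of them in 2 (0.578%, 0.0701 to 2.07%) and 10 (0.267%, 0.128 to 0.490%). The genes Ncr1, Eomes, Klra1, Klra7 and Klra8 of the 15 listed NK and CD8 markers were at 0 in all members. Klra1 and Klra7 were also at 0 in all WT Klrg1-zero barcodes. The summed level of the list was 85.5 CPM in members and 121 CPM in Klrg1-zero barcodes (62.0 CPM in the cleaned set). B cell markers summed to 421 and 327 CPM (285 CPM cleaned), led by Ighm with 383 CPM in members, while Vpreb3 and Pax5 were at 0. Macrophage markers summed to 38.5 and 252 CPM (48.2 cleaned), mast cell markers to 4.28 and 10.2 CPM, and genes of innate-like lymphocytes and ILC2 to 47.4 and 21.9 CPM. Of the members, 19 (5.49%) had a doublet score in the top 5% of the WT library, against 141 (3.76%) of the Klrg1-zero barcodes. The part of other cells in the ratios below was not tested beyond the cleaned set.

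The other markers of the population were all higher in WT Klrg1-positive barcodes. S100a4, a calcium-binding protein of motile and effector T cells, was 1224 CPM in members and 276 CPM in Klrg1-zero barcodes, 4.43-fold higher (4.24 to 4.63), and had a UMI in 264 members. S100a6, its neighbour on chromosome 3, was 3044 and 803 CPM, 3.79-fold higher (3.69 to 3.89), with a UMI in 328 members. Ccl5, a chemokine of effector lymphocytes, was 295 and 79.2 CPM, 3.72-fold higher (3.41 to 4.06), but only 93 members had a UMI. The member with the most Ccl5 held 95 of the 758 UMIs, and without it the ratio was 3.26. The next held 70, and it is the member described below for Gzma, which had no UMI of the 4 Treg genes. Itgb1, the integrin β1 chain, was 469 and 242 CPM, 1.94-fold higher (1.82 to 2.06), in 285 members. Il18rap, the accessory chain of the IL-18 receptor, was 28.4 and 8.40 CPM, 3.38-fold higher (2.53 to 4.47), in 56 members.

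All 5 were found more often in members at equal depth too. Thinned to 2000 UMIs, S100a4 was found in 61.6% of members and 17.9% of Klrg1-zero barcodes, S100a6 in 84.1 and 43.4%, Itgb1 in 57.8 and 26.7%, Ccl5 in 15.9 and 6.86% and Il18rap in 5.49 and 1.63%. Erythroid-marker barcodes of WT had thinned shares of 6.72, 25.2, 12.6, 0.840 and 0% for these genes.

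Over all genes, 7826 had enough UMIs to enter, meaning that the rate over both sets would give at least 20 UMIs in the smaller set, and 78 of these (0.997%) were at least 2-fold higher in WT members while 148 (1.89%) were at least 2-fold lower. Against the cleaned set 77 of 7811 were higher (0.986%) and 95 were lower (1.22%). The median log2 ratio of all genes was 0.02. As members were chosen on Klrg1 in these same cells, these counts describe the sets. UMIs of the members counted toward entry. Il1rl1, Cxcr6, Itga2, Fgl2 and Entpd1, described below, would not have entered at their Klrg1-zero rate alone. This can raise the counts of higher genes and the list medians below, which leave out listed genes that did not enter. Of the 78 higher genes 43 had a lower interval bound of at least 2-fold. Among the population markers 4 of 5 entered genes were at least 2-fold higher and Itgb1 was just under.

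**Figure D2:**
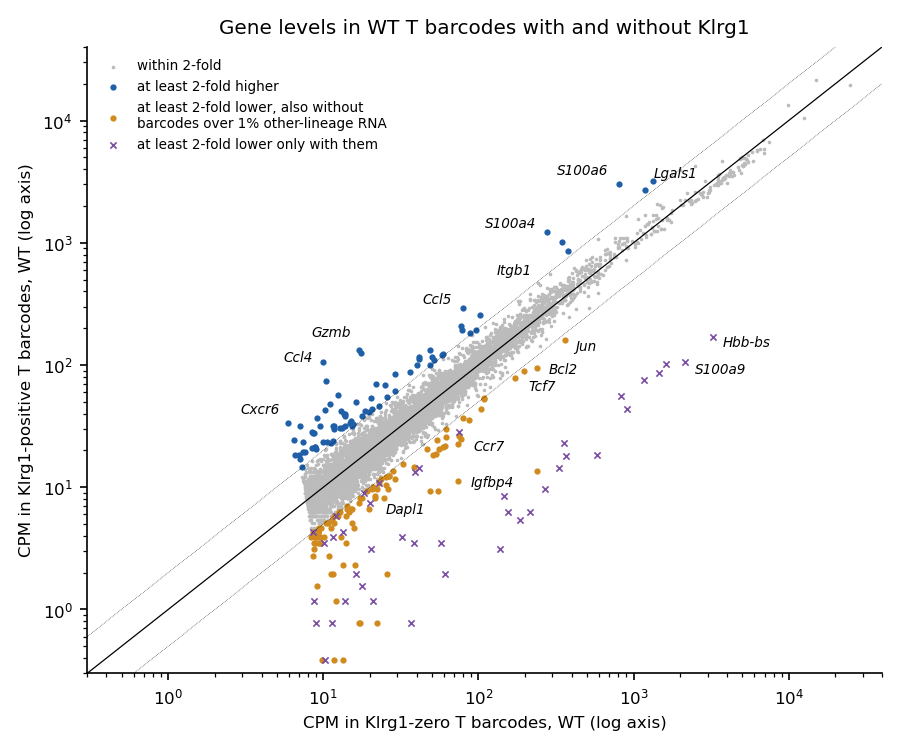
CPM in WT Klrg1-positive barcodes (vertical) against CPM in WT Klrg1-zero barcodes (horizontal) for the 7826 genes that entered, both on log axes, with a solid line at equality and dotted lines at 2-fold. Blue genes were at least 2-fold higher, orange genes at least 2-fold lower also without barcodes over 1% other-lineage RNA, and purple crosses lower only with them, and genes with no UMI in members are not drawn. S100a6 and S100a4 lie above the upper dotted line at high levels and Igfbp4 and Ccr7 below the lower one.

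The highest ratios belonged to chemokine, granzyme, chemoattractant receptor and alarmin receptor genes. Ccr2, a receptor for inflammatory chemokines that guides cells out of blood, was 126 CPM in members and 17.4 CPM in Klrg1-zero barcodes, 7.24-fold higher (6.21 to 8.44), and 143 members had a UMI. Gzmb, the cytotoxic protease granzyme B used by effector Tregs, was 133 and 17.1 CPM, 7.78-fold higher (6.68 to 9.05), in 63 members, and 7.00-fold without the member with the most. Cxcr6, the receptor for CXCL16, was 33.8 and 5.90 CPM, 5.74-fold higher (4.30 to 7.62), in 42 members. These 3 genes were spread over many members. After thinning, Ccr2 was found in 21.1% of members and 2.67% of Klrg1-zero barcodes, and Gzmb in 10.7 and 1.87%.

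Ltb4r1, the receptor for leukotriene B4, was 56.4 and 12.5 CPM, 4.50-fold higher (3.64 to 5.54), and 10.3-fold higher against the cleaned set, in 52 members. Il1rl1, which encodes ST2, was 31.5 and 7.03 CPM, 4.48-fold higher (3.37 to 5.93), in 59 members. Neb was 4.04-fold higher (3.12 to 5.20), 1500009L16Rik 4.35-fold (3.46 to 5.44), and Itga2, the integrin α2 chain that pairs with β1, 3.81-fold (2.77 to 5.18).

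Some of the highest ratios rested on single barcodes. Ccl4 was 10.7-fold higher (8.88 to 12.9), but 257 of its 273 UMIs (94.1%) came from 1 member, and without it the ratio was 0.629. Xcl1 was 7.13-fold higher (5.83 to 8.71), but 177 of 191 UMIs (92.7%) came from that same member, and the ratio was 0.524 without it. That barcode had 8734 UMIs with 1 Klrg1, 16 Gzmb, 4 Ikzf2, 6 Ctla4 and 3 Il2ra UMIs. It had none of Foxp3 or Cd4, and none of Ncr1, Klrb1c, Cd8a or Cd8b1. Gzma, the protease granzyme A, was 4.14-fold higher (3.26 to 5.25), with 48 of 110 UMIs in 1 member and 2.34-fold without it. This member, of 3747 UMIs, had 70 Ccl5 and 3 Klrb1c UMIs and none of Foxp3, Il2ra, Ctla4, Ikzf2 or Cd4, a pattern that goes against its Treg label.

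**Figure D3:**
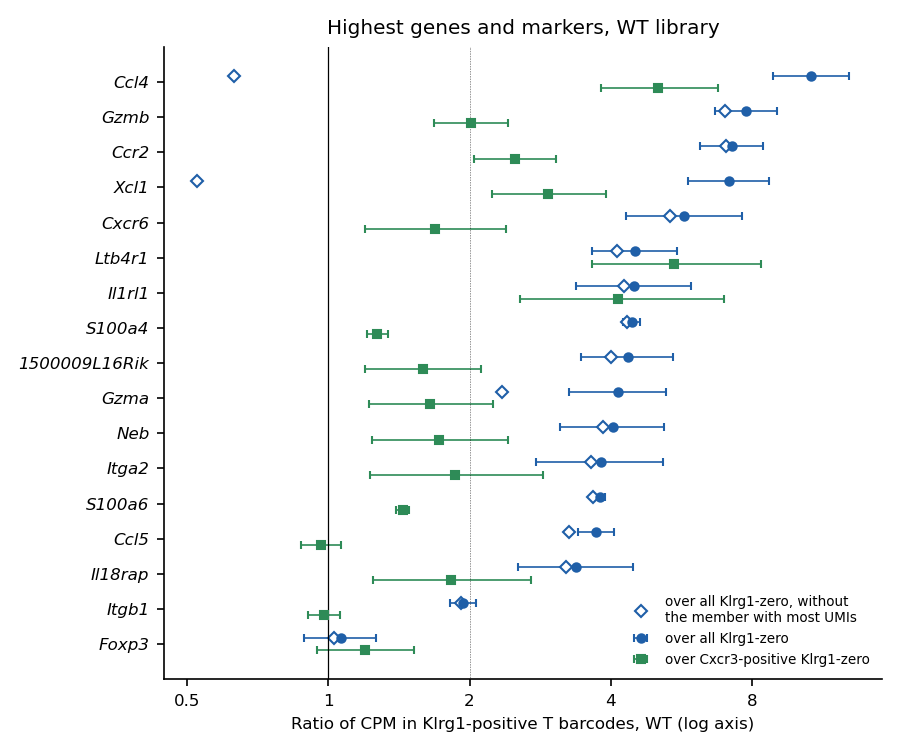
Ratio of CPM in WT Klrg1-positive barcodes (horizontal, log axis) for the 15 highest genes, Itgb1 and Foxp3, over all Klrg1-zero barcodes (blue circles), over Cxcr3-positive Klrg1-zero barcodes (green squares) and over all Klrg1-zero barcodes without the member with the most UMIs of that gene (open diamonds). Bars are 95% intervals. The diamonds of Ccl4 and Xcl1 fall below 1, those of Gzmb and Ccr2 stay near the circles, and Foxp3 lies near 1.

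Members were also read by 26 gene lists of known roles. Among Treg identity genes, 1 of 15 was at least 2-fold higher and 1 at least 2-fold lower, with a median log2 ratio of 0.27. The higher gene was Entpd1, the ectonucleotidase CD39, at 18.3 against 6.98 CPM (2.62-fold, 1.84 to 3.67), and the lower was Gpr83 at 36.9 against 79.4 CPM (0.465, 0.374 to 0.572). Ctla4, the inhibitory receptor, was 136 and 86.0 CPM (1.59, 1.41 to 1.78), Ikzf2, the Treg factor Helios, 833 and 689 CPM (1.21), and Il2ra, the high-affinity chain of the IL-2 receptor, 154 and 145 CPM (1.06, 0.956 to 1.18). Izumo1r was 0.722 and Ikzf4 0.725 of the Klrg1-zero level.

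Among entered genes, receptors that effector Tregs use in tissues were higher as groups. Of 8 listed alarmin receptor genes 4 entered, with a median log2 of 1.47, and 3 of these were at least 2-fold higher. These 3 were Il1rl1, Il18rap and Il18r1 (42.0 against 18.6 CPM, 2.26-fold, 1.81 to 2.81), while Crlf2 was 1.40-fold. Of 17 listed chemokine receptor genes 8 entered, with a median of 0.85, and 4 were at least 2-fold higher. Besides Ccr2 and Cxcr6 these were Ccr4, a skin-homing receptor, at 42.0 against 13.1 CPM (3.21-fold, 2.54 to 4.03), and Cxcr3, a receptor of type 1 inflammation, at 111 against 41.5 CPM (2.68-fold, 2.34 to 3.07). Ccr6 and Cxcr5 were at ratios of 0.745 and 0.825. Ccr3 had too few UMIs to enter, with 31 in members and 18 in the far larger Klrg1-zero set (13.6-fold, 7.39 to 25.9).

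Genes of lymphoid homing were lower in part. Ccr7, which guides T cells to lymphoid T zones, was 24.9 CPM in members and 77.6 CPM in Klrg1-zero barcodes (0.321, 0.246 to 0.412). The list of 8 had no gene at least 2-fold higher and only Ccr7 at least 2-fold lower, with a median of -0.10. Klf2, S1pr1 and S1pr4 had ratios of 1.00, 0.873 and 1.46. Of 9 integrin genes only Itga2 was past 2-fold (median 0.31), with Itga4 at 1.42, Itgb7 at 1.40 and Itgal at 1.11.

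The S100, annexin and galectin list was higher as a group, with 6 of 17 genes at least 2-fold higher and a median of 0.85. S100a10, a partner of annexin A2, was 3226 CPM in members and 1343 CPM in Klrg1-zero barcodes (2.40-fold, 2.34 to 2.46), S100a11 2.92-fold higher (2.79 to 3.05), Lgals1, galectin-1, 2.26-fold (2.20 to 2.32), and Lgals3, galectin-3, 207 against 77.7 CPM (2.66-fold, 2.41 to 2.94). Crip1, Tagln2, Vim, Anxa2 and Ahnak lay between 1.78 and 1.96-fold. Anxa1 was 0.0905 of the Klrg1-zero level, and 1.24 against the cleaned set.

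Naive and quiescence genes were lower as a group. Of 18 genes 7 were at least 2-fold lower, none was at least 2-fold higher, and the median was -0.64. Igfbp4 was 11.3 against 74.1 CPM (0.152, 0.102 to 0.219), Dapl1 9.33 against 48.4 CPM (0.193, 0.123 to 0.289), Actn1 0.359, Il6st 0.456 and Bach2, a repressor of effector differentiation, 0.487. Tcf7, the factor TCF-1 of central and stem-like T cells, was 77.7 against 173 CPM (0.448, 0.387 to 0.517), and Satb1, a chromatin organizer, 88.6 against 198 CPM (0.448, 0.390 to 0.512). Foxp1 and Lef1 were less far apart at 0.592 and 0.697. Il7r, the IL-7 receptor, stood against the direction of the list at 143 and 89.4 CPM (1.61, 1.43 to 1.80).

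**Figure D4:**
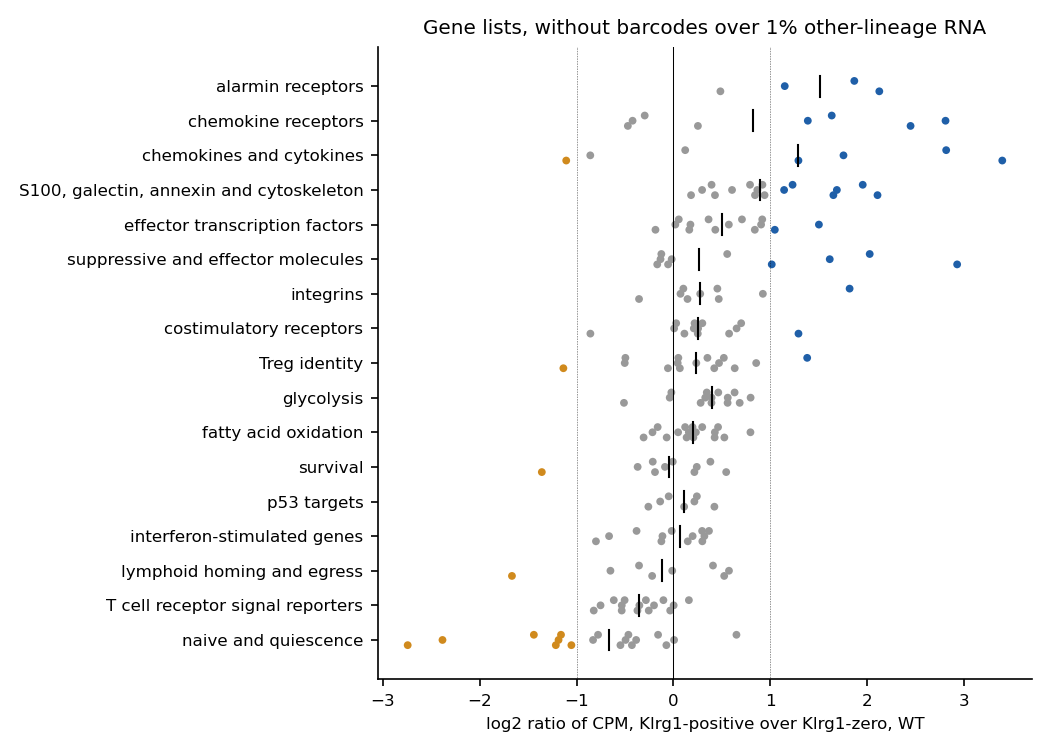
Log2 ratio of WT Klrg1-positive over Klrg1-zero barcodes, without barcodes over 1% other-lineage RNA, for each entered gene (points) of each list (rows), with the list median as a bar and dotted lines at 2-fold. Blue and orange points are at least 2-fold higher and lower. The alarmin receptor, chemokine receptor and S100 lists lie to the right of 0 and the naive and quiescence list to the left.

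Among effector transcription factors 2 of 14 were at least 2-fold higher with a median of 0.52. Rora, a nuclear receptor of tissue Tregs, was 110 against 52.0 CPM (2.12-fold, 1.85 to 2.42) and Nfil3 31.9 against 11.6 CPM (2.75-fold, 2.11 to 3.55). Gata3, linked to ST2-positive Tregs, was 154 against 92.6 CPM (1.67-fold, 1.49 to 1.86), and Maf, Runx3, Id2 and Batf lay between 1.51 and 1.94-fold. Irf4 and Tox were at 1.01 and 1.06. Prdm1, which encodes the effector Treg factor Blimp-1, had 41 UMIs in members and was under the entry level (2.82-fold, 1.93 to 4.06), and Pparg had 14 UMIs against 26 (4.26-fold, 2.06 to 8.46).

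Of 10 suppressive and effector genes 3 were at least 2-fold higher, Gzmb, Gzma and Fgl2, a secreted inhibitor of T cells (23.3 against 7.42 CPM, 3.14-fold, 2.29 to 4.27), with a median of 0.31. Ebi3, a chain of IL-35, was 1.91-fold, Tgfb1 0.928 and Pdcd1 0.945. Il10 had 20 UMIs in members and 64 in Klrg1-zero barcodes, below the entry level, for a ratio of 2.47 (1.42 to 4.14). Icos, a costimulatory receptor of effector Tregs, was 195 against 78.8 CPM (2.48-fold, 2.24 to 2.74) with a UMI in 196 members and thinned shares of 30.3 and 11.6%, and was the 1 gene of 13 costimulatory genes past 2-fold (median 0.27). Cd200 was 55.6 against 99.9 CPM (0.557, 0.466 to 0.660). Of 7 chemokine and cytokine genes 4 were at least 2-fold higher (median 1.31), Ccl4 and Xcl1 with the single member described above, Ccl5, and Cxcl10 (2.48-fold, 1.79 to 3.39). Lta, lymphotoxin α, was lower at 0.473 (0.335 to 0.651).

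Of 15 genes reporting T cell receptor signals none was past 2-fold, and only Tnfaip3 (1.14) and Nr4a2 (1.02) were above the Klrg1-zero level. Egr1 was 88.2 against 153 CPM (0.577, 0.502 to 0.660), Nr4a1 0.716 and Nr4a3 0.588, and the median was -0.33. The phosphatases by which KLRG1 signals were near the level of other T cells, with Inpp5d, SHIP-1, at 54.4 against 46.6 CPM (1.17, 0.971 to 1.40) and Ptpn11, SHP-2, at 1.12, and 0 of 4 entered genes past 2-fold (median 0.17). The ligand gene Cdh1 had 1 UMI in members and 5 in Klrg1-zero barcodes. Fatty acid oxidation genes (0 of 17 past 2-fold, median 0.23) included Hadha, a subunit of the mitochondrial trifunctional protein, at 131 and 117 CPM (1.12, 1.00 to 1.26) and Acadl at 91.4 and 51.5 CPM (1.77, 1.53 to 2.04). Glycolysis genes (0 of 14, median 0.39) included Pgk1 at 315 and 182 CPM (1.73, 1.60 to 1.87).

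Of the lists of cell state, p53 targets had 0 of 7 genes past 2-fold (median 0.11). Interferon-stimulated genes had 0 of 13 higher and 1 lower (median -0.09), Rsad2, which was at 0.0851 and, against the cleaned set, 0.825. Survival genes had 0 of 10 higher and 1 lower (median -0.03), Bcl2, an inhibitor of apoptosis, at 94.9 against 237 CPM (0.40, 0.350 to 0.455). Erythroid genes had 8 of 8 lower (0 of 5 against the cleaned set), neutrophil genes 10 of 11 (0 of 6), B cell genes 1 of 3, the macrophage list its 1 entered gene, and NK and CD8 genes 2 of 3 with 1 higher (1 of 3 lower against the cleaned set). No mast cell gene entered, and the 1 entered gene of the innate-like and ILC2 list was higher.

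The lowest genes of all were mostly of other lineages. Cd177, Mcemp1, Cstdc6 and Lrg1, genes of neutrophils, had 0 UMIs in members, and Csta2, Retnlg, Stfa2, Stfa3 and Ngp had ratios from 0.0212 to 0.0313. Against the cleaned set these 5 were between 0.648 and 0.805. Iglc1, an immunoglobulin light chain, was at 0.0291 with 1 UMI (0.0855 cleaned). Against the cleaned set the lowest were the basophil protease genes Prss34 (0.0322, 1 UMI) and Mcpt8 (0.0442, 2 UMIs), followed by Igfbp4 (0.149), Dapl1 (0.192), Tubb2b (0.241), Grifin (0.243), Slc22a2 (0.293), Sgk3 (0.296), Treml2 (0.309) and Ccr7 (0.315).

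Levels were then read by the number of Klrg1 UMIs in a WT barcode, which grouped 3748, 184, 48 and 114 barcodes with 0, 1, 2 and 3 or more. S100a6 was 803, 2536, 3332 and 3683 CPM in this order, S100a4 276, 1056, 1330 and 1431 CPM, Ccr2 17.4, 81.5, 114 and 196 CPM and Cxcr6 5.90, 17.4, 37.2 and 56.8 CPM. Il1rl1 was 7.03, 22.6, 28.6 and 45.7 CPM, Ltb4r1 12.5, 27.2, 40.0 and 106 CPM and Gata3 92.6, 130, 117 and 205 CPM. Tcf7 and Ccr7 ran downward, from 173 to 60.1 CPM and from 77.6 to 10.0 CPM. Ccl5 and Gzmb did not follow the Klrg1 count among members, at 297, 395 and 252 CPM and at 135, 106 and 140 CPM for 1, 2 and 3 or more. The Ccl5 values rest in part on single barcodes. Of the 138 Ccl5 UMIs of members with 2 Klrg1 UMIs, 70 were in the member with Klrb1c and no Treg gene. Of the 394 of members with 1 Klrg1 UMI, 95 were in 1 member. Foxp3 was 54.5, 61.9, 37.2 and 60.1 CPM. Median UMIs were 4882, 6569, 6640.5 and 7324.5, and thinned shares of Ccr2 were 2.67, 14.1, 16.7 and 34.2%.

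**Figure D5:**
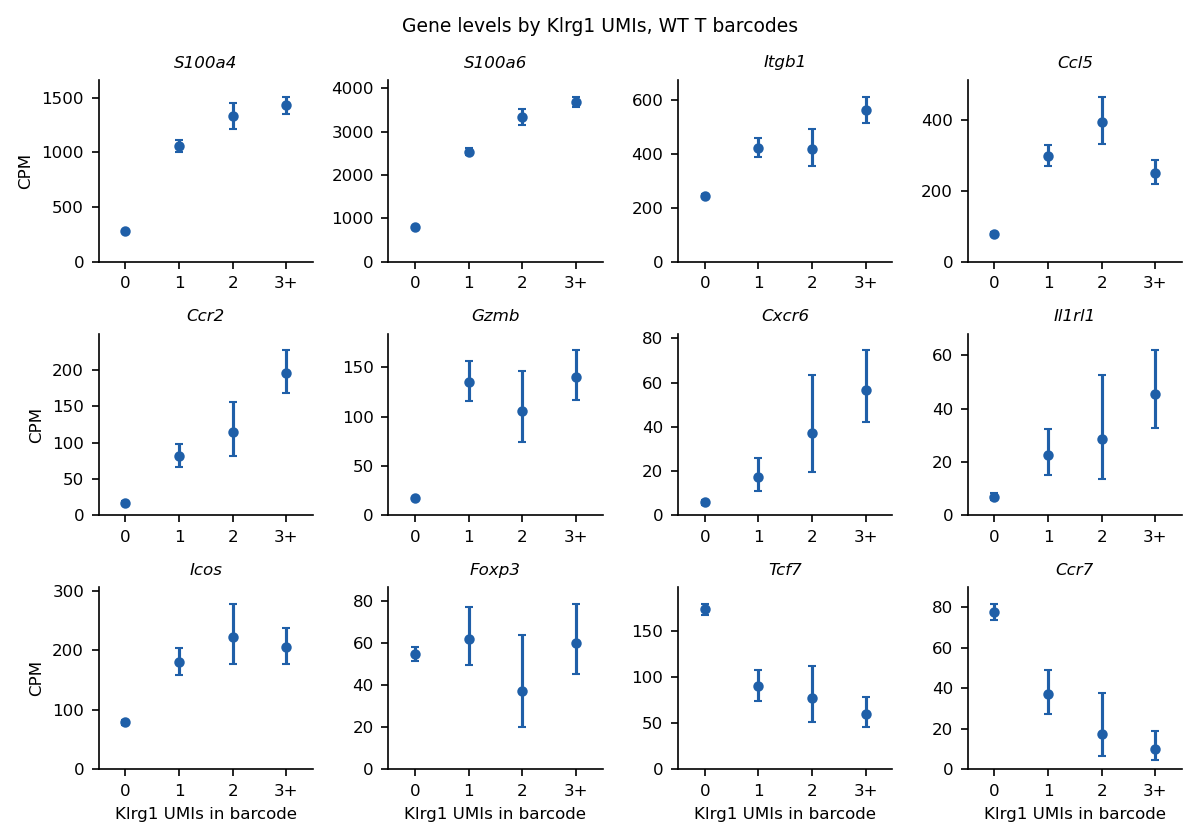
CPM with Poisson 95% intervals of 12 genes (vertical, own scale in each panel) in WT T-cell barcodes with 0, 1, 2 and 3 or more Klrg1 UMIs (horizontal). Ccr2 climbs from 17.4 to 196 CPM and Ccr7 descends from 77.6 to 10.0 CPM, while Foxp3 stays between 37.2 and 61.9 CPM.

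Co-detection within the 346 WT members was read after thinning. Of 9 genes compared between the 55 members with Ccl5 and the 291 without, none had intervals that lay apart. Cxcr3 was found in 17 of the 55 (30.9%, 19.1 to 44.8%) and 49 of the 291 (16.8%, 12.7 to 21.6%), Gata3 in 36.4 and 26.8%, Icos in 30.9 and 30.2% and Il2ra in 21.8 and 21.6%. Of 56 further pairs, added after values were seen, 5 had intervals that lay apart, and these include Gzmb with Cxcr3 in both directions. Of 37 members with Gzmb, Cxcr3 was found in 15 (40.5%, 24.8 to 57.9%) and in 51 of the other 309 (16.5%, 12.5 to 21.1%). The other 3 pairs were S100a4 with Gzmb (31 of 37 against 182 of 309), with Ccr2 (55 of 73 against 158 of 273) and with Il1rl1 (17 of 18 against 196 of 328). These shares describe cells of 1 library, and no difference between them was tested.

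To see where Klrg1-positive cells differ from other effector-type Tregs, they were set beside the 428 WT Klrg1-zero T-cell barcodes with a Cxcr3 UMI, which had a median of 6240.5 UMIs. Of 7721 entered genes 29 (0.376%) were at least 2-fold higher in members and 45 (0.583%) at least 2-fold lower, and the median log2 ratio was 0.02. None of the population markers was past 2-fold, with Ccl5 at 0.963 (0.873 to 1.06), Itgb1 at 0.981 (0.907 to 1.06), S100a4 at 1.27 (1.21 to 1.34), S100a6 at 1.44 (1.39 to 1.49) and Il18rap at 1.83 (1.24 to 2.71). The intervals of Ccl5 and Itgb1 included 1, and those of S100a4, S100a6 and Il18rap lay above it. The S100, alarmin receptor, chemokine receptor and naive lists were less far apart from this set. At least 2-fold higher were 0 of 18 S100-list genes (median 0.22), 1 of 4 alarmin receptors (0.35) and 2 of 9 chemokine receptors (0.30). Of 18 naive and quiescence genes only 1, Igfbp4, was at least 2-fold lower (median -0.18).

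The highest genes against the Cxcr3-positive set were Ltb4r1 (5.44-fold, 3.65 to 8.35), Tmem273 (5.29-fold, 2.64 to 11.7), Ccl4 (5.04-fold, with the member above) and Il1rl1 (4.14-fold, 2.56 to 6.97). Pgm2, the cell cycle inhibitor Cdkn1c, Xcl1, Ccr4, Rpl39l and Sap25 followed at 3.78, 3.28, 2.94, 2.83, 2.63 and 2.53-fold, where Xcl1 rests on the same member as Ccl4. Against all Klrg1-zero barcodes Pgm2, Rpl39l and Sap25 were not past 2-fold, at 1.74, 1.69 and 1.06. Tmem273, Pgm2, Rpl39l, Sap25 and Il1rl1 had 10, 14, 18, 20 and 22 UMIs in the Cxcr3-positive set. At the rate of that set alone they would not have entered, so their place in this ranking depends on the entry rule. Ccr2 (2.50-fold, 2.05 to 3.06), Nfil3 (2.49-fold, 1.67 to 3.78) and Gzmb (2.02-fold, 1.68 to 2.42) were also past 2-fold. Gata3 was 1.56-fold (1.33 to 1.82) and Il7r 1.93-fold (1.63 to 2.30), whereas Il18r1 (0.875), Maf (1.00) and Lgals3 (1.01) were near equal. The lowest was the chemokine gene Ccl1 (0.0230, 1 UMI), then Retnlg, Csta2, Ifitm6, Stfa2, Stfa3, Alox5ap, the interferon-stimulated gene Ifit3 (0.0819), Cstdc4 and Stfa2l1, and Lag3 was 0.482. All 7 entered neutrophil markers were at least 2-fold lower here (median -3.10). Of the 428 Cxcr3-positive barcodes 2 had over 1% other-lineage RNA, and the part of that RNA in these low ratios was not tested.

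The marker genes were also lower in KO T cells without Klrg1. Among Klrg1-zero barcodes S100a4 was 276 CPM in WT and 24.2 CPM in KO, a ratio of 0.0876, S100a6 803 and 85.5 CPM (0.106), Itgb1 242 and 29.2 CPM (0.121), Ccl5 79.2 and 11.7 CPM (0.148) and Il18rap 8.40 and 2.48 CPM (0.295). Thinned shares in KO Klrg1-zero barcodes were 2.06, 8.39, 4.91, 0.816 and 0.337%. Foxp3 was 54.5 and 52.9 CPM. Hadha was 117 and 62.9 CPM (0.540), and Igfbp4 was higher in KO at 231 against 74.1 CPM (3.12).

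The 17 KO members did not carry the profile of the WT members. All had at least 1 UMI of Foxp3, Il2ra, Ctla4 or Ikzf2, with Foxp3 in 4, Il2ra in 11, Ctla4 in 5 and Ikzf2 in 16. At least 2 of these genes were found in 13 of the 17. S100a4 had 9 UMIs, all in 1 barcode, S100a6 23 UMIs (181 CPM, 115 to 272), Itgb1 3 UMIs (23.6 CPM), Il18rap 4 UMIs and Ccl5 115 UMIs, of which 114 were in the barcode that held all S100a4. That barcode, of 8690 UMIs, had 7 UMIs of Ncr1, an NK cell receptor, 3 of Klrb1c, 14 of Gzmb, 3 of Il18rap, 2 of Klrg1 and 1 of Ikzf2. Another member, of 14501 UMIs, had 14.3% of them in markers of other lineages, with 726 UMIs of S100a9, 493 of S100a8, 314 of Ngp and 261 of Camp, genes of neutrophils. Of the KO members 4 of 17 (23.5%) were in the top 8% of doublet scores of the scored KO barcodes. Without these 2 barcodes the other KO members held 0 S100a4, 6 S100a6, 2 Itgb1 and 1 Ccl5 UMIs, and their markers thus go against the name effector Treg, so that they are called by the rule alone.

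Against KO Klrg1-zero barcodes 9 of 821 entered genes (1.1%) were at least 2-fold higher and 17 (2.07%) at least 2-fold lower. The 5 highest were Camp (11.2-fold), Ngp (9.96-fold), Cstdc5 (7.82-fold), S100a8 (5.59-fold) and S100a9 (5.35-fold), nearly all of it from the barcode with neutrophil RNA. The 5 lowest were the globin genes Hbb-bt (0.0533), Hba-a2 (0.0635), Hba-a1 (0.0728) and Hbb-bs (0.0739), and Gm8369 (0.151). The summed erythroid marker level was 1071 CPM in KO members and 15028 CPM in KO Klrg1-zero barcodes. It was 892 CPM in the KO Klrg1-zero set without barcodes over 1% other-lineage RNA. The population markers had too few UMIs to enter this comparison, so none could be among the genes named here. Outside the entry rule, KO ratios were 77.2 for Ccl5, 12.7 for Il18rap (3.37 to 34.2) and 2.93 for S100a4 (1.33 to 5.59). They were 2.12 for S100a6 (1.34 to 3.19) and 0.810 for Itgb1 (0.167 to 2.38). Without the neutrophil-RNA barcode and the barcode with Ncr1, they were 0.821, 0, 0, 0.676 and 0.661 in the same order.

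Set against WT members, KO members had 11 of 883 entered genes (1.25%) at least 2-fold higher and 66 (7.47%) at least 2-fold lower, with a median log2 ratio of -0.09. The lowest were markers of the WT population, Itgb1 at 0.0504 (0.0104 to 0.148), S100a4 at 0.0579 (0.0265 to 0.110) and S100a6 at 0.0595 (0.0377 to 0.0894). Without both barcodes named above, S100a4 was at 0 and S100a6 at 0.0190. Then followed AY036118 (0.106), Icos (0.121, 0.0249 to 0.356), S100a10 (0.237), S100a11 (0.242) and Aimp1 (0.251). Of 14 S100, annexin and galectin genes 8 were at least 2-fold lower (median -1.13), of 3 integrins all 3, and of 4 costimulatory genes 3, Icos, Cd28 and Slamf6. Klrg1-zero barcodes differed between the libraries too, with 123 of 11338 entered genes at least 2-fold higher in KO and 572 at least 2-fold lower. Their KO over WT ratios were 0.106 for AY036118, 0.458 for Icos, 0.369 for S100a10, 0.191 for S100a11 and 0.427 for Aimp1. Lower by at least 2-fold were 9 of 19 genes of the S100 list, 6 of 13 integrins and 2 of 14 costimulatory genes.

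Of the 8 genes highest in KO members, 4 came almost entirely from the same 2 barcodes. Cstdc5, S100a9 and S100a8 had ratios of 60.6, 54.6 and 38.8 with the neutrophil-RNA barcode, and 0.613, 0.754 and 0.699 without it. Ccl5 was 3.07-fold (2.50 to 3.75), and 0.0287 without the barcode with NK markers. Hbb-bs was 3.09-fold, Xist 3.25-fold, Bax 2.44-fold and Jun 2.42-fold, but 23 of the 49 Jun UMIs were in 1 KO member. Xist was also higher in KO than in WT among Klrg1-zero barcodes (534 and 227 CPM, 2.35-fold). In those barcodes Hbb-bs was 2.21-fold, Bax 1.41-fold and Jun 0.993. Il2ra was 1.89-fold (1.31 to 2.66), Ikzf2 0.511 (0.382 to 0.669) and Foxp3 0.544 (0.146 to 1.42), and of 7 entered Treg identity genes none was past 2-fold (median -0.45).

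Klrg1 was also found in T cells outside the limits. Among T-cell barcodes over the cycling limit 369 of 2162 in WT had a Klrg1 UMI (17.1%, 15.5 to 18.7%) and 20 of 2682 in KO (0.746%, 0.456 to 1.15%), at medians of 11263 and 6630 UMIs. Thinned to 2000 UMIs these shares were 5.37 and 0.224%. Of all WT T-cell barcodes within the other limits, 51.6% of those with Klrg1 and 32.4% of those without were over the cycling limit, with median depths of 9251 and 5852 UMIs.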

How the data were processed

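The counts were whole-number UMI counts per gene and barcode, deposited by the authors as 1 matrix per library of 32285 features and made with Cell Ranger 5.0.1 on mm10. The deposited barcodes had not been limited by the depth or mitochondrial filters used here, so all limits above were applied to the counts as deposited, with no normalization other than CPM over a set. The members, lists and comparisons were chosen with earlier results of these data known. Symbols on 2 or more rows (38) were left out.

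UMIs were summed over each set, and a gene entered a comparison where the pooled rate gave at least 20 UMIs in the smaller set. With 1 library per genotype no model was fitted, and a gene was counted as higher or lower from 2-fold. The named genes were the population markers, the 15 highest and 10 lowest in WT, the 8 highest and 8 lowest of KO over WT members, the 5 highest and 5 lowest in KO, and for each list the members with the largest ratios and those described for their role. The 10 lowest against the cleaned set and the 10 highest and lowest against Cxcr3-positive barcodes were added after values were seen, as were the splits of members by detected genes and the removal of single KO members. The lists covered Treg identity, alarmin receptors, effector transcription factors, suppressive genes, costimulation, chemokine receptors, homing, integrins, S100 and galectin genes, naive genes, receptor signal reporters, KLRG1 ligands and signalling, cytokines, other lineages, metabolism, p53, interferon and survival. Doublets were not removed, and Scrublet scores (top 5% of scored WT and 8% of scored KO barcodes) were used for 1 alternative. The sums and intervals were tested on simulated data. Gene positions came from GENCODE and promoter windows from RefSeq. Python 3.11.15, numpy 2.4.6, scipy 1.17.1, pandas 2.3.3, scanpy 1.11.5 and matplotlib 3.10.9 were used.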

Additional observations from a re-analysis of the deposited data

Results flagged for a closer look

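6 neutrophil genes had opposite directions in the libraries when Klrg1-positive barcodes were set against Klrg1-zero barcodes. In KO the ratios were 5.59 for S100a8, 5.35 for S100a9, 11.2 for Camp, 9.96 for Ngp, 4.49 for Stfa1 and 7.82 for Cstdc5. In WT they were 0.0625, 0.0495, 0.0488, 0.0313, 0.0639 and 0.0478 in the same order. The difference between the libraries was not tested. A single KO member held 493 of 501 S100a8 UMIs, 726 of 735 S100a9 UMIs, all 261 Camp UMIs, 314 of 319 Ngp UMIs, 201 of 203 Stfa1 UMIs and 332 of 335 Cstdc5 UMIs. Without it the KO ratios were 0.101, 0.0740, 0, 0.176, 0.050 and 0.0791.

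Klrg1 was detected in T-cell barcodes that the limits left out. It was present in 17.1% of WT and 0.746% of KO T-cell barcodes over the cycling limit, and in 5.31% (3.75 to 7.28%) of the 678 WT T-cell barcodes over the mitochondrial limit, which had a median of 2763 UMIs.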

How the results depend on the processing

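The share of WT T-cell barcodes with Klrg1 was 8.45% and became 4.47% when thinned to 2000 UMIs, 4.14% with at least 2 Klrg1 UMIs (among barcodes with 0 or at least 2), 11.1% from 4000 UMIs, 7.16% with no UMI minimum and 11.4% with no cycling limit. The KO share of 0.301% became 0.0884% when thinned and 0.0355% with at least 2 Klrg1 UMIs. The 78 higher genes in WT became 42 when thinned, 37 with an entry level of 50 UMIs and 50 with no cycling limit, and the 148 lower genes 76, 69 and 272, and 95 without barcodes over 1% other-lineage RNA. In KO the 9 higher genes became 3 without the neutrophil-RNA member and 3 without both members that stood apart. Of KO over WT members the 11 higher genes became 2 with at least 2 Klrg1 UMIs, 0 when thinned, 0 from 50 UMIs, 27 with no cycling limit and 7 without the NK-marker member, and the 66 lower genes became 15, 14, 21 and 122 under the first 4 of these. The WT ratios of Ccl4 and Xcl1 were 0.646 and 0.924 with at least 2 Klrg1 UMIs, which leaves out the member that held most of their UMIs. Those of S100a4, S100a6, Ccl5, Il18rap and Itgb1 were lowest with no cycling limit, at 2.77, 2.40, 2.18, 1.83 and 1.43. The KO over WT ratio of Ccl5 was 0.0287 without the NK-marker member and 0.0327 without both, and that of Jun 0.598 with at least 2 Klrg1 UMIs. Those of Cstdc5, S100a8 and S100a9 were 0.785, 0.767 and 0.359 with at least 2 Klrg1 UMIs, 0.624, 0.622 and 0.771 without other-lineage RNA, 0.443, 0.757 and 0.727 without both members, and 0.613, 0.699 and 0.754 without the neutrophil-RNA member. Thinning, higher entry levels and stricter limits test fewer UMIs or genes, and for other changes the cause was not tested. Of 351 values of 27 genes named in WT 276 stayed within the interval of the value reported, 73 did not and 2 reversed, and of 240 values of 16 genes in KO over WT 177, 48 and 15. The settings that leave out single KO members were chosen after seeing the data. No paired analysis was possible because each genotype had 1 library. The 17 KO members let 821 genes enter, against 7826 in WT.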

Other observations

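Of the 78 genes at least 2-fold higher in WT Klrg1-positive barcodes, 53 belonged to none of the lists. Among them, all named after their values were seen, were Rhoc, a small GTPase of cell motility, at 3.20-fold (2.67 to 3.81), Ly6a, the surface protein Sca-1, at 2.53-fold (2.32 to 2.77), Glrx, a glutaredoxin, at 2.73-fold (2.41 to 3.09), and Gna15, a G protein subunit, at 2.47-fold (2.14 to 2.85). Receptors in this group were Il9r, the IL-9 receptor, at 2.56-fold (1.95 to 3.32) and Cd200r1, the receptor of the CD200 ligand whose own gene was lower, at 2.37-fold (1.82 to 3.07). Transcription regulators were Tox2 at 3.16-fold (2.36 to 4.18), Runx2 at 2.35-fold (1.73 to 3.15) and Zbtb32 at 2.08-fold (1.61 to 2.66). Nkg7, a gene of cytotoxic granules, was 2.08-fold higher (1.88 to 2.31), and Epcam, an epithelial adhesion molecule, 2.68-fold (2.06 to 3.46). Each of these ratios was past 2-fold against the cleaned Klrg1-zero set too.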
